A study of Mus musculus with 48 samples.

Results

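Nampt, Nmnat1, Nadk, Sirt1, Sirt6 and Parp1 make, phosphorylate or consume NAD, and all 6 genes were present among the 11313 gene symbols of the deposited exon and intron tables. They were chosen by name, as genes that link NAD to the circadian clock, and were followed in all 48 libraries. RNA came from NIH 3T3 cells, an immortalised mouse embryonic fibroblast line with a clock of its own. Cells carried either a control hairpin (shCTRL) or a hairpin against Bmal1 (shBmal1), the clock activator that the tables list as Arntl, and all were synchronised with 50% horse serum for 2 h. Cultures were taken every 2 h at time points labelled 24 to 46, read here as hours after serum. Each culture gave a total RNA library and a library of newly made RNA, labelled with the uridine analogue 4-thiouridine (4sU), biotinylated and pulled down on streptavidin. There were thus 4 groups of 12 libraries, with 1 library per group and time point and 1 line per hairpin, so p-values measure the spread of single libraries around fitted curves and say nothing of the spread between independent lines.

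NAD is the electron carrier of central metabolism and is also consumed as a substrate. Nampt makes nicotinamide mononucleotide from nicotinamide, the rate-limiting step of NAD salvage, and Nmnat1 turns that product into NAD in the nucleus. Nadk phosphorylates NAD to NADP in the cytosol. Sirt1 and Sirt6 are NAD-dependent deacylases that act on chromatin and other proteins, and Parp1 uses NAD to build poly(ADP-ribose) at sites of DNA damage. The mouse Nampt gene is known as a target of the CLOCK and BMAL1 activators, and SIRT1 is known to act on clock proteins, so that NAD salvage and the clock are described as a loop.

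Exon totals were 48873013 to 76260143 reads per library. All 10 fibroblast markers examined were present, with a summed total RNA level of 6013 to 6826 RPKM in shCTRL and 4938 to 5912 in shBmal1. Markers of other cell types were low, with sums of 13.4 to 20.5 and 16.9 to 23.2 RPKM for 3 of 6 leukocyte markers and 2.18 to 4.44 and 7.20 to 13.3 for 1 of 5 epithelial markers (Krt14), in shCTRL and shBmal1. Of the rest, 1 of 4 endothelial markers summed to 0.244 to 0.547 and 0.315 to 0.872, 1 of 4 adipocyte markers to 2.99 to 4.48 and 2.02 to 2.84, and the 4 neural markers have no row in the tables. Their part in the results was not tested. The targeted gene, Arntl, had a lowest, median and highest total exon level of 1.33, 8.74 and 17.3 RPKM in shCTRL and 2.25, 3.95 and 4.71 in shBmal1. Its level moved over the day in shCTRL, and the shBmal1 range lay wholly within that of shCTRL. The log2 difference between the line means was -0.92 ± 0.0810 (SE, limma adjusted p 3.59e-09).

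The promoters are shown because the clock activators bind the E-box CACGTG. The 250 bases before the start site were taken from RefSeq on GRCm38.p6, 5′ to 3′, with each CACGTG in capitals. The Nampt window lies at chr12:32820085-32820334 on the plus strand, the Sirt1 window at chr10:63339036-63339285 on the minus strand, the Parp1 window at chr1:180568641-180568890 on the plus strand and the window of the second annotated Nadk start at chr4:155563565-155563814 on the plus strand.
Nampt: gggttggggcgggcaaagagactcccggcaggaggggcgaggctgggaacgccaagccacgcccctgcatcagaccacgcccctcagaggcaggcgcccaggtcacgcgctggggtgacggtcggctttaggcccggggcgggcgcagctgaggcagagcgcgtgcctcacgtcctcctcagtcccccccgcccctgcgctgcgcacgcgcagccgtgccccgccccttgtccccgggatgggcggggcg
Sirt1: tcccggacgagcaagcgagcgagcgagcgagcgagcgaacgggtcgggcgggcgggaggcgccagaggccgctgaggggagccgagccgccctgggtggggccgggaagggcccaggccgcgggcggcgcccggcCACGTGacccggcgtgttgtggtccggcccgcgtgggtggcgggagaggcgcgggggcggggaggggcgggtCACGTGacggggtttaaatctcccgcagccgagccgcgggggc
Parp1: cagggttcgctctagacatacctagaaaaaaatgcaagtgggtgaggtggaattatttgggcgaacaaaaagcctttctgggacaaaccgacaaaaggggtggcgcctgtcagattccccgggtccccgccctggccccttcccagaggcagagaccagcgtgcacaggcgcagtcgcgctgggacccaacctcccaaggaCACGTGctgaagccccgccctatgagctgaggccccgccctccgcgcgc
Nadk: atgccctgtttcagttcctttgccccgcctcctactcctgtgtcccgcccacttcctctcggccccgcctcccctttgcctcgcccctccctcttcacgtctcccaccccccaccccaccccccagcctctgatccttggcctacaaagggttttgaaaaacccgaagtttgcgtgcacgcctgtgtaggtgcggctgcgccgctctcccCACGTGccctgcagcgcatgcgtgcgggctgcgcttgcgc
The Sirt1 window held 2 CACGTG, whose first bases were 115 and 43 bases before the start. The Parp1 window held 1 at 49 bases and the Nadk window 1 at 40 bases. Neither CACGTG nor the related CACGTT, searched on both strands, was found in the Nampt window or in the windows of Sirt6, Nmnat1 and the first Nadk start. Of 32851 windows of the same length, 6.02% held CACGTG, 0.429% held it at least 2 times and 3.85% held CACGTT, and CACGTG was found for 10.2% of the 8641 matched genes of the tables. The window of the second Nadk start lies within the Nadk gene, and those of Sirt6 lie wholly or mostly within Sirt6. A match is a description of the sequence only. These windows do not reach sites after the start site or more than 250 bases before it.

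The genes lie, on the same build, at 12:32820335-32853369 (Nampt), 4:149467569-149485210 (Nmnat1), 4:155562381-155591001 (Nadk), 10:63319005-63339035 (Sirt1), 10:81621787-81627792 (Sirt6) and 1:180568891-180600999 (Parp1). The noncoding gene Gdap10 overlaps Nampt over 2804 bases, and Tmem274 overlaps Nmnat1 over 5914 bases. Libraries were strand-specific, but no label or header says whether counting used strand, so intron reads of Nampt and Nmnat1 may include those of their neighbours.

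Levels in total RNA were compared as exon RPKM, reads per kilobase of exon and per unit of library size, scaled between libraries. Nadk was the highest of the 6 in shCTRL, with a mean of 42.7 ± 1.68 RPKM (SD over the 12 time points), at percentile 90.5 of the 10906 genes tested, whose median was 7.40. Sirt6 followed at 19.9 ± 1.41 and Parp1 at 9.67 ± 0.371. Sirt1 had 4.94 ± 0.606, Nampt 3.78 ± 0.466 and Nmnat1 1.21 ± 0.172 RPKM, the last at percentile 8.44. Sirt1 and Nampt overlapped in range, whereas the ranges of all other neighbours in this order were apart. In shBmal1 the order was the same except that Nampt, at 3.48 ± 0.625 RPKM, and Sirt1, at 3.44 ± 0.642, lay side by side.

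**Figure D1:**
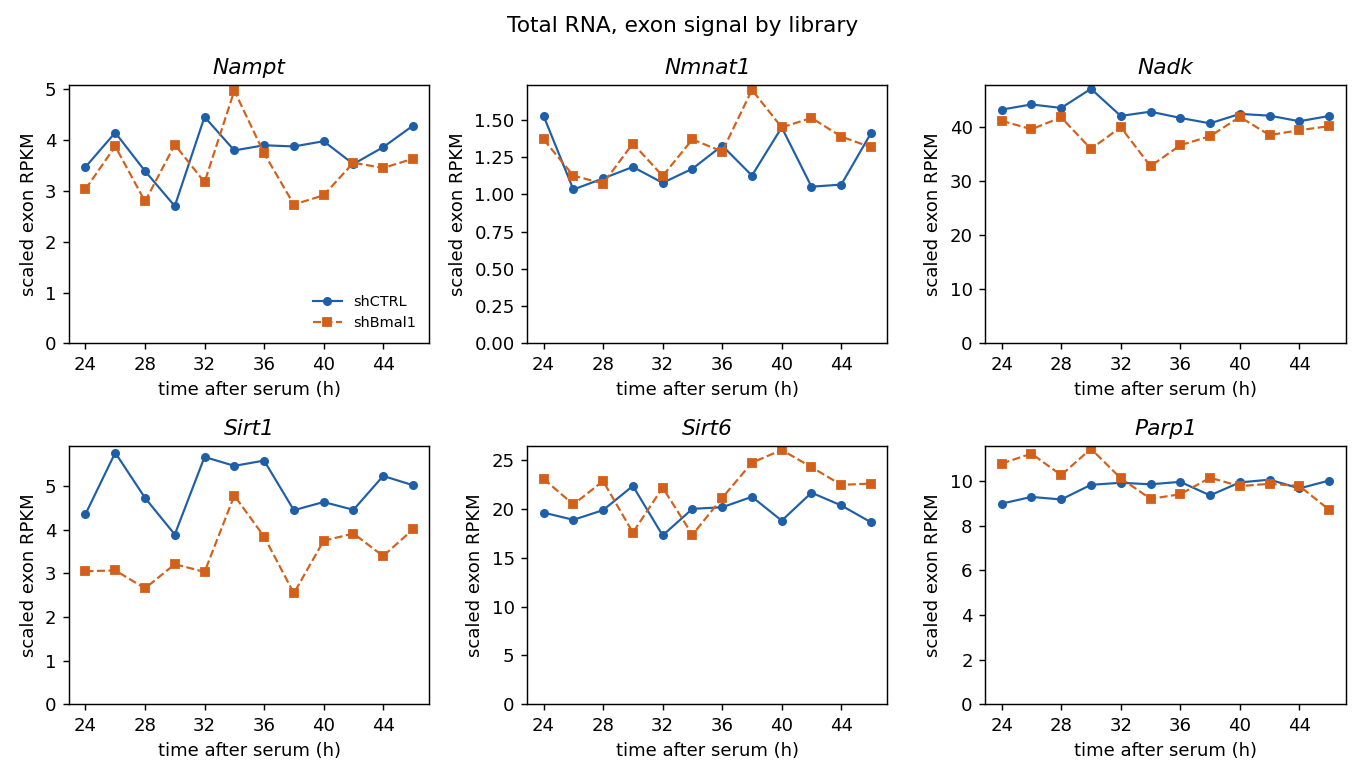
Scaled exon RPKM of the 6 genes in total RNA (y axis, from 0) against hours after serum (x axis), 1 point per library, circles for shCTRL and squares for shBmal1. Sirt1 and Nadk lie lower in shBmal1 at 12 of 12 time points, and Nampt is lowest at 30 h in shCTRL and highest at 34 h in shBmal1. The Sirt1 values hold a step of 0.18 (log2) in exon length that lowers shBmal1 relative to shCTRL.

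Whether the genes followed the day was asked in each line with cosine and sine terms of 24 h, and a rhythm was called at a limma adjusted p under 0.05 over all genes. In shCTRL 0 of 6 genes were called in total exon RNA, where 3.60% of all genes were, and 0 of the 6 had an unadjusted p under 0.05. Nampt, the salvage enzyme, had total exon levels of 2.70, 3.87 and 4.46 RPKM (lowest at 30 h, median and highest at 32 h) in shCTRL. Its lowest and highest levels were thus 1 time point apart. The fitted Nampt amplitude, the log2 distance from mean to peak, was 0.08 ± 0.0822 (SE) with an adjusted p of 0.895. An amplitude 2 SE above that value is 0.24. The other 5 genes had amplitudes of 0.03 to 0.06, with 0.20 as the highest value at 2 SE above an estimate, for Nmnat1 and Sirt1. The median amplitude over all genes was 0.08.

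Clock genes in the same libraries moved by far more. Of 12 clock reference genes 11 were called in shCTRL total exon RNA. Dbp, a clock output factor, had an amplitude of 1.63 ± 0.0839 (adjusted p 1.28e-10), Arntl one of 1.59 ± 0.0810 (1.21e-10) and the repressor Nr1d1 one of 1.51 ± 0.0554 (4.95e-13). Cry2, the lowest of those called, had 0.35 ± 0.0574 (0.0029), and Clock, which was not called, 0.28 ± 0.0807 (0.130). In shBmal1 total exon RNA 9 of the 12 were called (all genes 11.1%), with a median amplitude of 0.34 against 1.19 in shCTRL.

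**Figure D2:**
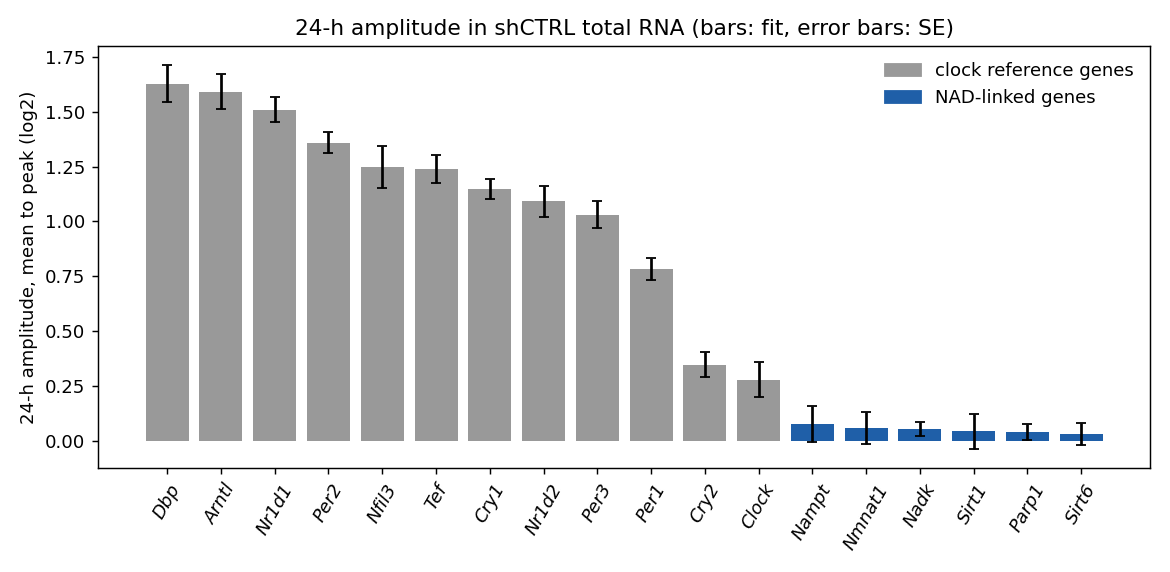
Fitted 24-h amplitude in shCTRL total exon RNA (y axis, log2, mean to peak) for 12 clock reference genes in grey and the 6 NAD-linked genes in blue, with SE as error bars. The NAD-linked genes lie at 0.03 to 0.08, below Clock at 0.28.

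Newly made RNA gave the same count. In shCTRL 0 of 6 genes were called in 4sU exon RNA (all genes 1.98%), 4sU introns (1.12%), total introns (1.34%) and the 4sU/total exon ratio (0.0184%). At an unadjusted p under 0.05 there were 0, 0, 2 and 1 of them, which were Sirt1 and Parp1 in total introns and Sirt1 in the ratio. Intron signal of 4sU RNA stands closest to synthesis, and there the Nampt amplitude was 0.10 ± 0.0514 (adjusted p 0.547). The other 5 had 4sU intron amplitudes of 0.03 to 0.07. Terms of 12 h called 0 of 6 in either line in total exon RNA (all genes 0.00% in shCTRL and 0.0183% in shBmal1) and in 4sU introns (0.00% in both), with 0, 0, 0 and 1 (Sirt6 in shBmal1 4sU introns) of the 6 under an unadjusted p of 0.05.

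In shBmal1 0 of 6 had a 24-h rhythm in total exon RNA (all genes 11.1%) or in 4sU introns (5.82%), with 1 (Sirt6) and 0 under an unadjusted p of 0.05. For 4sU exon RNA and total introns, the lowest limma adjusted p was 0.0704 and 0.118, each for Nmnat1. Sirt1, Parp1 and Sirt6 had 0.190, 0.166 and 0.687 in 4sU exon RNA. The largest total exon amplitude was that of Nmnat1, 0.19 ± 0.0730 (adjusted p 0.212). Sirt6 had 0.16 ± 0.0503 (0.0919). Without the 32 h libraries Sirt6 was called at 0.23 (0.0039) and Nadk at 0.12 (0.0305), and Sirt6 also passed for 12 h at 0.15 (0.0404). The 24-h rhythm itself differed between the lines for 0 of 6 genes in total exon RNA (all genes 0.807%) and in 4sU introns (0.286%), with 0 and 1 under an unadjusted p of 0.05. That 1 was Nampt in 4sU introns, with a difference of 0.23 ± 0.0727 and an adjusted p of 0.255.

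**Figure D3:**
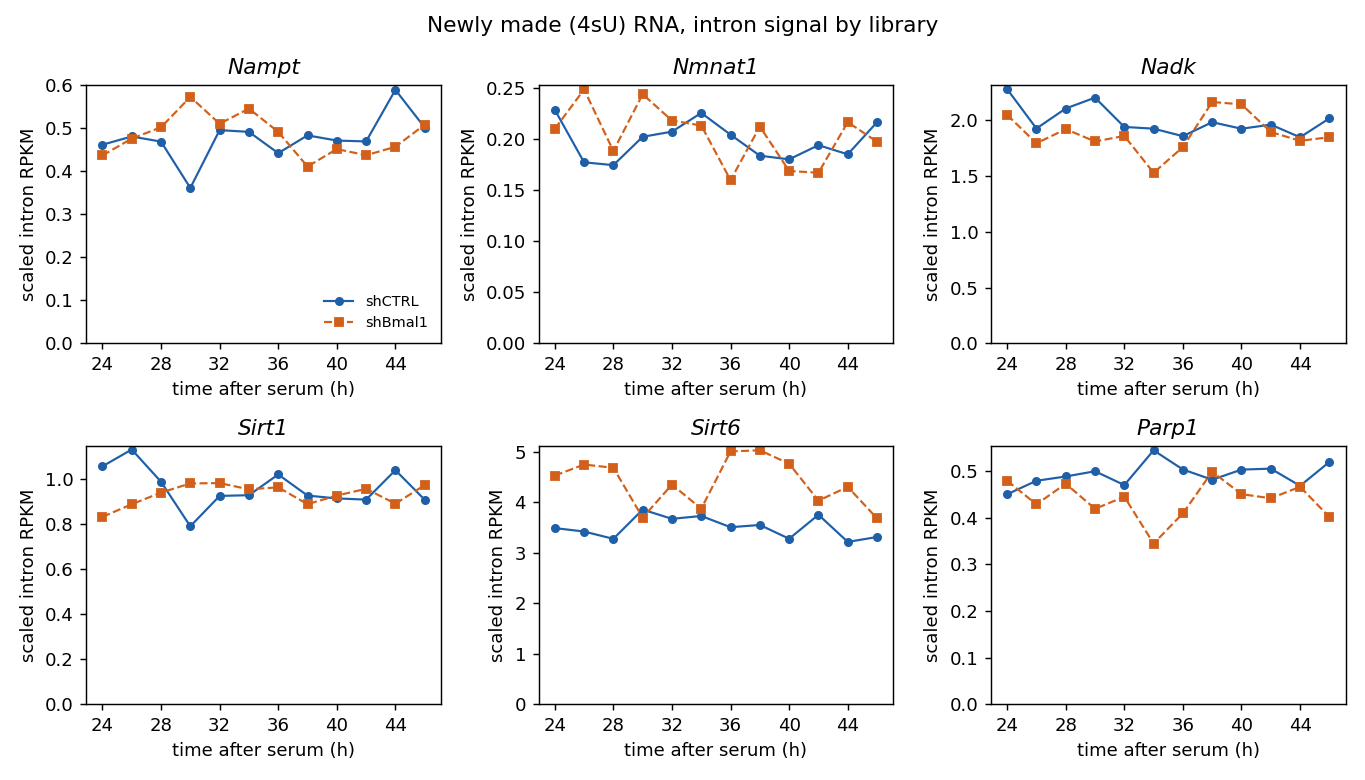
Scaled intron RPKM of the 6 genes in 4sU RNA (y axis, from 0) against hours after serum (x axis), 1 point per library, circles for shCTRL and squares for shBmal1. After scaling Sirt6 is higher in shBmal1 at 11 of 12 time points (its mean is lower as deposited), and Nampt is lowest at 30 h in shCTRL.

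The comparison of the lines asked how the genes' mean levels over the day differed when Bmal1 was targeted. Relative to shCTRL, Sirt1 and Nadk were lower and Sirt6 was higher in shBmal1 total exon RNA, while Nampt, Nmnat1 and Parp1 did not pass the test. That is 3 of 6 genes, 1 higher and 2 lower, where 67.6% of all genes were called, 34.4% higher and 33.1% lower. In the other layers 3 of 6 were called in 4sU exon RNA (all genes 54.4%), 2 of 6 in total introns (56.1%), 2 of 6 in 4sU introns (44.4%) and 3 of 6 in the 4sU/total ratio (28%). With only 6 genes, these counts are not read as differing from the shares of all genes. They include Nampt in total introns and Sirt1 in the ratio, which were not called with reads not divided by length (adjusted p 0.555 and 0.0631). In bulk RNA, fewer cells that express a gene and less RNA per cell cannot be told apart. With RPKM as deposited the median of all genes moved to 0.09 in total exon RNA, 0.07 in 4sU exon RNA and -0.45 in 4sU introns, so that differences are given after scaling, relative to the median gene. Deposited intron RPKM of the 12 shBmal1 4sU libraries had been divided by totals 1.35 to 1.39 times their exon totals, which lowers them relative to shCTRL.

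**Figure D4:**
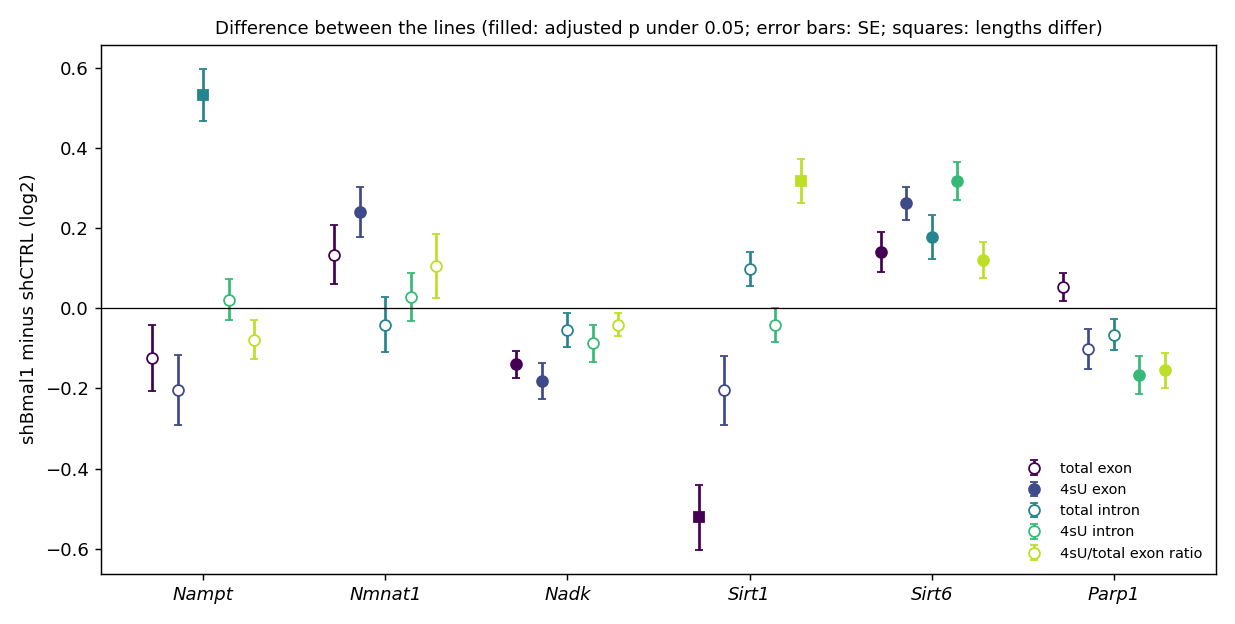
Difference between the line means, shBmal1 minus shCTRL (y axis, log2), for the 6 genes and 5 layers, with SE as error bars, filled where the limma adjusted p was under 0.05 and square where the feature length behind the RPKM differed between groups. Sirt6 is above 0 in every layer after scaling (its 4sU intron value is -0.16 as deposited), and the squares for Sirt1 and Nampt are the values that depend on length.

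Among the enzymes that make NAD, Nampt had total exon levels of 2.70, 3.87 and 4.46 RPKM in shCTRL and 2.73, 3.50 and 4.97 in shBmal1 (lowest, median and highest). The lines overlapped, and shBmal1 was lower at 9 of 12 time points. The log2 difference was -0.12 ± 0.0822 (adjusted p 0.185), and it passed only without the 30 h libraries among the 12 time points left out in turn, at -0.19 (0.0440). The 4sU exon levels of Nampt were 3.26, 4.55 and 5.22 RPKM in shCTRL and 2.90, 3.81 and 5.63 in shBmal1. Here too shBmal1 was lower at 9 of 12 time points. The difference of -0.20 ± 0.0871 had an adjusted p of 0.0559, and passed without the 26, 30, 34 or 46 h libraries at -0.22 (0.0355), -0.27 (0.0119), -0.23 (0.0454) and -0.24 (0.0425). The 4sU introns of Nampt were level between the lines, with 0.362, 0.477 and 0.590 RPKM in shCTRL, 0.411, 0.484 and 0.573 in shBmal1 and a difference of 0.02 ± 0.0514 (0.755), whose sign turned without the 30 or 46 h libraries.

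Total introns of Nampt read 0.223, 0.330 and 0.358 RPKM in shCTRL and 0.353, 0.473 and 0.545 in shBmal1. The difference was 0.53 ± 0.0655 (adjusted p 1.71e-06), and 11 of the 12 shBmal1 libraries lay above every shCTRL library. The deposited RPKM, however, had divided the reads by an intron length of 18639 bases in shBmal1 total RNA and of 28488 bases in the other 3 groups, a step of 0.61 on the log2 scale. With reads not divided by length, the difference was -0.05 ± 0.0653 (0.555).

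Nmnat1, the nuclear enzyme after Nampt, had total exon levels of 1.03, 1.15 and 1.53 RPKM in shCTRL and 1.07, 1.35 and 1.70 in shBmal1. The groups overlapped, and the difference of 0.13 ± 0.0730 did not pass (adjusted p 0.109), except without the 40 h libraries, at 0.18 (0.0364), and with RPKM as deposited, at 0.22 (0.0154), where the median gene was at 0.09. Its 4sU exon levels were 1.11, 1.38 and 1.65 RPKM in shCTRL and 1.41, 1.59 and 2.18 in shBmal1, higher at 11 of 12 time points. That difference was 0.24 ± 0.0624 (0.0030). Its 4sU introns differed by 0.03 ± 0.0597 (0.715). Nmnat1 rested on few reads, 153 to 299 exon reads per total RNA library.

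Nadk, which feeds the NADP pool, had total exon levels of 40.6, 42.2 and 47.0 RPKM in shCTRL and 32.7, 39.4 and 41.8 in shBmal1. It was lower in shBmal1 at 12 of 12 time points, and 9 shBmal1 libraries lay below every shCTRL library. The difference was -0.14 ± 0.0330 (adjusted p 0.0009). The 4sU exon difference was -0.18 ± 0.0447 (0.0021), lower at 11 of 12 time points. The introns did not pass, with -0.05 ± 0.0429 (0.291) in total RNA and -0.09 ± 0.0459 (0.130) in 4sU RNA. With RPKM as deposited the total exon difference was -0.05 (0.110), below a median of all genes of 0.09.

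Among the consumers, Sirt1 differed most in total exon RNA. Its levels were 3.89, 4.87 and 5.76 RPKM in shCTRL and 2.54, 3.30 and 4.78 in shBmal1, lower at 12 of 12 time points. Only 3 shBmal1 libraries reached the shCTRL range. The difference was -0.52 ± 0.0807 (adjusted p 9.31e-06). The exon length behind these values was 3888 bases in shCTRL total RNA and 4403 bases in the other 3 groups. That step of 0.18 lowers shBmal1 relative to shCTRL in the levels and in the counts of time points and libraries above. With reads not divided by length the difference was -0.35 ± 0.0808 (0.0008). In 4sU exon RNA, where the lengths were equal, Sirt1 had 4.97, 6.68 and 7.92 RPKM in shCTRL and 4.24, 5.71 and 8.64 in shBmal1. That difference of -0.20 ± 0.0856 had an adjusted p of 0.0504, and passed without the 26, 30, 34 or 46 h libraries, at -0.24 to -0.25, and with a filter 4 times stricter (0.0498). Sirt1 introns differed by -0.04 ± 0.0428 in 4sU RNA (0.459) and by 0.10 ± 0.0435 in total RNA (0.0619), the last called without the 26 h libraries at 0.15 (0.0022).

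Sirt6, the chromatin deacylase, was higher in shBmal1 in all 4 measured layers after scaling, and lower in 4sU introns as deposited. Its 4sU intron levels were 3.21, 3.50 and 3.85 RPKM in shCTRL and 3.68, 4.44 and 5.03 in shBmal1. They were higher at 11 of 12 time points, with 10 shBmal1 libraries above every shCTRL library. The difference was 0.32 ± 0.0477 (adjusted p 2.98e-05), at a median of all genes of 0.00, and with RPKM as deposited it was -0.16 where that median was -0.45. In 4sU exon RNA Sirt6 had 16.3, 17.3 and 18.4 RPKM in shCTRL and 17.6, 21.0 and 23.1 in shBmal1, and 11 shBmal1 libraries lay above every shCTRL library. The difference was 0.26 ± 0.0419 (3.04e-05). Total RNA differed less, by 0.18 ± 0.0544 in introns (0.0094) and by 0.14 ± 0.0503 in exons (0.0179). Its total exon levels were 17.3, 19.95 and 22.4 RPKM in shCTRL and 17.4, 22.5 and 26.05 in shBmal1, and the exon call was lost without the 28, 32 or 40 h libraries, at 0.12 (0.0541), 0.08 (0.0759) and 0.12 (0.0685).

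Parp1, the poly(ADP-ribose) polymerase, had total exon levels of 8.99, 9.84 and 10.1 RPKM in shCTRL and 8.71, 10.0 and 11.4 in shBmal1. Of the shBmal1 libraries, 6 lay above every shCTRL library and 1 below, and shBmal1 was higher at 7 of 12 time points. The difference was 0.05 ± 0.0357 (adjusted p 0.191), and with RPKM as deposited 0.14 (0.0041) at a median of 0.09. Its 4sU introns were lower in shBmal1, with 0.451, 0.495 and 0.545 RPKM in shCTRL and 0.345, 0.444 and 0.499 in shBmal1. They were lower at 10 of 12 time points, and 7 shBmal1 libraries lay below every shCTRL library. That difference was -0.17 ± 0.0467 (0.0073). In 4sU exon RNA it was -0.10 ± 0.0505 (0.0962), called without the 24 or 38 h libraries at -0.13 (0.0208) and -0.14 (0.0339).

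The 4sU/total exon ratio sets newly made RNA against the RNA present in the same culture. On the log2 scale, with the median gene at 0.00, Sirt1 had a mean ratio of 0.43 ± 0.155 (SD over 12 time points) in shCTRL, at percentile 84.2 of 10866 genes, and 0.75 ± 0.259 in shBmal1, at percentile 96.0. The shCTRL ratio of Sirt1, and so its percentile, is lowered by a length step of 0.18. Its exon length was 3888 bases in shCTRL total RNA and 4403 in shCTRL 4sU RNA. Nampt had 0.23 ± 0.116 and 0.15 ± 0.123. Nmnat1 had 0.19 ± 0.228 and 0.29 ± 0.245. Sirt6 had -0.19 ± 0.101 and -0.07 ± 0.150, Parp1 -0.37 ± 0.0538 and -0.53 ± 0.185, and Nadk -0.42 ± 0.0451 and -0.46 ± 0.0954. Nadk and Parp1 thus held the least newly made RNA for the RNA present, and Sirt1 the most. A larger share of the RNA entered the pull-down in shBmal1, per the labels, and the part of that in the ratio was not tested.

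Between the lines the ratio was higher in shBmal1 for Sirt1, by 0.32 ± 0.0550 (adjusted p 0.0004), and for Sirt6, by 0.12 ± 0.0438 (0.0485). It was lower for Parp1, by -0.15 ± 0.0429 (0.0123). With the time point fitted as a block shared by the lines, neither the Sirt6 difference (0.106) nor the Parp1 difference (0.0718) was called. The Sirt1 value holds the length step, and was 0.14 ± 0.0547 (0.0631) with reads not divided by length. The Sirt6 call was lost in 9 of the 12 fits that each left out a time point, all but those without 24, 32 or 40 h, and the difference ran from 0.09 to 0.16 over the 12. Nampt, at -0.08 ± 0.0494 (0.255), passed only without the 46 h libraries, at -0.13 (0.0339), and Nadk and Nmnat1 did not pass in any of those fits.

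Over the day in shBmal1, the ratio followed 24 h for 3 of 6 genes where 18.0% of all genes were called, a comparison taken up after its values were seen. The Sirt1 ratio was lowest at 0.42 at 40 h and highest at 1.22 at 26 h, and above 0.80 in each library from 26 to 34 h. Its amplitude was 0.29 ± 0.0550 with a peak at 29.8 h (adjusted p 0.0092). Parp1 had 0.18 ± 0.0429 with a peak at 42.4 h (0.0243), and Sirt6 0.16 ± 0.0438 with a peak at 31.5 h (0.0443). None of the 3 passed with a linear term for time added (0.0817, 0.212 and 0.168), under which 0 of all genes did. The Parp1 call was lost without the 30, 34, 40, 42 or 46 h libraries and the Sirt6 call without the 28, 30, 34, 36, 38, 40, 42 or 46 h libraries, whereas the Sirt1 call held in all 12 of these fits, at 0.26 to 0.31. Nadk gained a call without the 24 or 32 h libraries, at 0.11 in each case, and Nmnat1 without those of 38 h, at 0.25. A difference in this rhythm between the lines was called for 0 of 6 genes (all genes 0.0920%), with 2 under an unadjusted p of 0.05. The lowest adjusted p was 0.0565, for Sirt1 at 0.38 ± 0.0778, and it passed without the 24 or 26 h libraries (0.0344 and 0.0323).

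Several genes had their extremes in the same cultures. At 30 h in shCTRL, Nampt was lowest in all 4 measured layers, Sirt1 was lowest in total exon, 4sU exon and 4sU intron RNA, and Nadk and Sirt6 were highest in total exon RNA. At 34 h in shBmal1, Nampt and Sirt1 were highest in total and 4sU exon RNA, and Nadk was lowest in all 4 layers. Parp1 was lowest there in 4sU exon RNA and in the introns of both. Total and 4sU RNA of a time point come from 1 culture and are not independent.

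These cultures also stood apart over all genes. The first axis of the 24 total RNA libraries, after each line's mean was taken off, held 32.2% of the variance. Scores ran from -0.42 at 28 h in shBmal1, with -0.42 also at 30 h in shCTRL and -0.36 at 24 h in shBmal1, to 0.49 at 34 h in shBmal1. Over these 24 libraries Nampt had r = 0.85 and Sirt1 r = 0.84 with the axis, Nadk -0.70, Sirt6 -0.53, Parp1 -0.37 and Nmnat1 0.12, while 31.1% of all genes reached 0.70 in size. The axis had r = 0.16 with log2 depth. Its part in the results was not tested.

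Likeness to the 6 genes was measured over the same 24 total RNA libraries, as Pearson's r of log2 exon level after each line's mean was taken off. Points share cultures, scaling and this axis, so r is a description only. Nampt was most like Cltc (the clathrin heavy chain, 0.97), Bzw1 (0.97), Crot (a peroxisomal carnitine acyltransferase, 0.96), Tceal9 (0.95) and Pls3 (an actin-bundling plastin, 0.95). Its r with each of these was 0.94 or more within either line. Sirt1 was most like Mob4 (0.91) and Gk5 (0.89), Sirt6 like Dbn1 (the actin-binding drebrin, 0.93) and Gm20662 (0.91), and Nadk like Cln8 (0.87) and Mvp (the major vault protein, 0.87). Parp1 came closest to the cell cycle phosphatase Cdc25a (0.80, from 0.08 in shCTRL and 0.91 in shBmal1) and the co-chaperone Stip1 (0.80). Nmnat1 had the weakest best match, Il18bp at 0.64, followed by Gm15787 at 0.63.

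Among themselves, Nampt and Sirt1 had r = 0.75, and Sirt1 ranked 1203 of 10905 genes by likeness to Nampt. Nampt ran opposite to Sirt6 (-0.80) and Nadk (-0.76), each with the same sign in both lines. Sirt6 and Nadk had 0.65 over both lines, from 0.24 in shCTRL and 0.78 in shBmal1. Parp1 and Nmnat1 had r between -0.43 and 0.11 with every other gene of the 6.

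The rest of NAD metabolism was taken from 8 lists with 67 further genes, of which 45 were in the tables and 44 passed the filter in total exon RNA. Of these 12 were higher in shBmal1, 10 were lower and 22 were not called, with a median log2 difference of -0.02 against 0.01 for all genes. Of all genes 67.6% were called, 34.4% higher and 33.1% lower, and each list count below is to be read against these shares. Exon length differed between the lines for 4 of the 44 in total RNA (Sirt3, Sirt5, Xrcc1 and Mthfd2l). A 24-h rhythm in total exon RNA was called for 0 of the 44 in shCTRL (all genes 3.60%) and for 4 in shBmal1 (11.1%). In NAD salvage, of 7 genes tested with Nampt and Nmnat1, Nmnat2 (the cytosolic relative of Nmnat1) was lower at -0.44 ± 0.0404 (adjusted p 5.03e-09). Its mean fell from 10.9 ± 0.942 to 7.96 ± 0.525 RPKM. Pnp, which splits nicotinamide riboside among other nucleosides, was higher at 0.27 ± 0.0476 (4.23e-05). In the de novo path only Afmid (kynurenine formamidase) was in the tables, higher at 0.47 ± 0.0698 (5.91e-06). Of 3 transport and methylation genes 1 was called, the mitochondrial NAD carrier Slc25a51, lower at -0.08 ± 0.0290 (0.0217).

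Of 7 sirtuins, 4 were higher and Sirt1 was lower, with lengths that differed between the lines for 3 of the 7 (Sirt1, Sirt3 and Sirt5). Besides Sirt6, the nuclear Sirt7 rose by 0.22 ± 0.0576 (adjusted p 0.0025). The mitochondrial Sirt5 read 0.60 ± 0.0936 higher (1.02e-05), a value that holds a length step of 0.36 (1776 bases in shCTRL and 1381 in shBmal1). With reads not divided by length it was 0.26 ± 0.0938 higher (0.0176). Of 13 PARP family genes with Parp1, 1 was higher and 5 were lower. The tankyrase Tnks was lower at -0.74 ± 0.0456 (1.54e-11), with a mean of 13.5 ± 0.742 RPKM in shCTRL and 8.09 ± 0.979 in shBmal1. Parp8 was lower at -0.30 ± 0.0590 (0.0002) and Parp6 at -0.27 ± 0.0483 (5.66e-05).

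Of 8 genes of poly(ADP-ribose) turnover and break repair, 2 were higher and 2 were lower. Macrod1, an ADP-ribose hydrolase, was lower at -0.82 ± 0.0684 (adjusted p 1.69e-09), and Parg, which degrades the polymer, at -0.45 ± 0.0879 (0.0001). The polymerase Polb was higher at 0.25 ± 0.0701 (0.0039). The break repair scaffold Xrcc1, with 2122 bases in shCTRL and 2491 in shBmal1, was not called at 0.04 (0.552) but was higher at 0.26 ± 0.0521 (0.0001) with reads not divided by length. The NAD hydrolase Sarm1 was not called at -0.15 ± 0.0887 (0.146).

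Of 10 NADP and NADPH genes with Nadk, 4 were higher, among them Mthfd2l, and 2 were lower. The folate enzymes Aldh1l2, at 0.71 ± 0.0662 (adjusted p 9.47e-09), and Mthfd1, at 0.37 ± 0.0374 (2.43e-08), were higher. The direction of Mthfd2l rests on its length, 2144 bases in shCTRL and 685 in shBmal1, a step of 1.65. As RPKM it read 1.38 ± 0.0632 higher (1.30e-13), whereas with reads not divided by length, an alternative chosen after seeing the data, it was lower at -0.23 ± 0.0652 (0.0036).

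**Figure D5:**
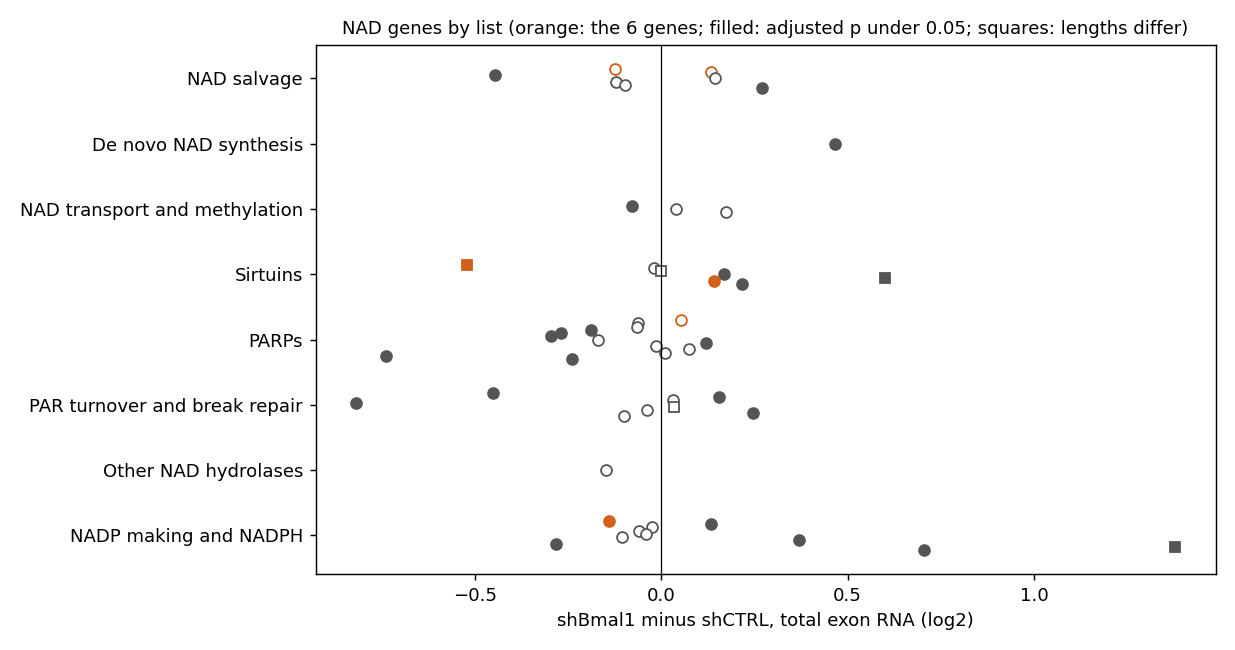
Difference between the lines in total exon RNA (x axis, log2, shBmal1 minus shCTRL) for each tested NAD gene by list (y axis), the 6 genes in orange, filled where the limma adjusted p was under 0.05 and square where exon length differed between the lines. Tnks and Macrod1 lie farthest below 0, and the place of Mthfd2l at 1.38 depends on its length.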

How the data were processed

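Total and 4sU RNA of 48 libraries from 2 NIH 3T3 lines were analysed, grouped by the labels. The authors deposited exon and intron RPKM, which were made with Trim Galore and HOMER 4.11.1 on mm10 (GRCm38.p6), per the submitters' processing notes. The aligner, annotation and strand setting are not given in the sources used here, and the spike-ins were not used here.

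Library totals and feature lengths were recovered from the steps of the RPKM values (whole reads within 0.001). For introns the total was that of the exons in 36 libraries, but 1.35 to 1.39 times as large in the other 12, all shBmal1 4sU. RPKM were therefore scaled within each layer by the median ratio to the geometric mean library, and taken as log2 with a pseudocount of 0.1 (exon) or 0.02 (intron), so that folds of low genes are understated. The filter was a mean RPKM of 0.5 (exon) or 0.1 (intron), and the remaining genes were fitted with limma 3.58.1 in R 4.3.3 (trend, robust), with a mean and 24-h and 12-h terms per line. P-values were adjusted by Benjamini-Hochberg over all genes of a layer, and under 0.05 was called. The scripts were tested on simulated data. Intervals and SE do not cover a difference between independent lines.

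The genes and lists were chosen with earlier results of these data known. All 6 genes are named, with up to 3 called genes per list with the largest difference and, by likeness, 5 genes for Nampt and 2 for each of the others. Alternatives were other scalings, pseudocounts, filters, time terms and variance models, and leaving out each time point in both lines.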

Additional observations from a re-analysis of the deposited data

Results flagged for a closer look

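The limma test of the 4sU/total ratio called the difference between the lines as unequal in 4sU and total exon RNA for 3 of the 6 genes. Over all genes the same test called 3042 of 10866, and with only 6 genes their count is not read as differing from that share. Each of the 3 calls was lost under an alternative given below. For Sirt1 the 4sU difference exceeded the total one by 0.317 on the log2 scale, a value that holds a step in exon length of 0.18 and was 0.14 with an adjusted p of 0.0631 when reads were not divided by length. For Sirt6 it exceeded the total one by 0.121, and the call was lost in 9 of the 12 fits that each left out a time point. For Parp1 it lay below it, at -0.155. With the time point as a replicate block only the Sirt1 difference was called (adjusted p 0.0218), and those of Sirt6 (0.106) and Parp1 (0.0718) were not.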

How the results depend on the processing

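Over all alternatives, 2336 values of single genes kept their sign and side of the threshold, 37 lost and 31 gained a call and 11 changed sign. The number of the 6 genes called changed as follows. The share of all genes called under each alternative is not given, so these counts describe the processing and not the 6 genes. In 4sU exon RNA it ran from 3 to 5 with a time point left out. In total introns it was 1 with a filter 4 times stricter and 1 with reads not divided by length, the last chosen after seeing the data. In 4sU introns it was 6 with RPKM as deposited, all lower, where the median of all genes was lower too. After scaling 1 was higher and 1 lower. In total exon RNA as deposited 3 were higher and 1 was lower, where the median of all genes was higher. The shBmal1 24-h count ran from 0 to 2 in total exon RNA with a time point left out and the 12-h count from 0 to 1. For the ratio, the shBmal1 24-h count was 0 with a linear term for time and ran from 1 to 4, and the count of rhythm differences from 0 to 1. The latter was also 1 with a pseudocount 10 times larger, with a filter 4 times stricter and without 12-h terms. Lines at equal time points did not deviate together throughout. Over genes, r ran from -0.16 to 0.38 in total exon RNA (9 of 12 over 0.1) and from -0.32 to 0.58 in 4sU exon RNA (10 of 12). With the time point as a replicate block, 1 ratio difference was called (Sirt1, adjusted p 0.0218; Parp1 0.0718, Sirt6 0.106), and 3, 3, 2 and 2 genes in the other layers.

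Signs changed for Nampt in total introns (-0.048, not divided by length) and, with RPKM as deposited, in 4sU introns for Nampt (-0.436), Sirt6 (-0.156) and Nmnat1 (-0.404), where the median gene was at -0.45. With a time point left out they changed in 4sU introns for Nampt (-0.025 to 0.056) and Nmnat1 (-0.0081 to 0.056) and in total introns for Nmnat1 (-0.097 to 0.015). The causes were not tested, except that the length and the scaling enter by construction. Depth limits Nmnat1 most, with 63 to 140 intron reads per total RNA library.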
